A study of Homo sapiens with 9 samples.

Results

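The urokinase system and matriptase, with their inhibitors, were followed in PC3 prostate cancer cells as 8 named genes: PLAU, PLAUR, PLAT, SERPINE2, SERPINB2, ST14, SPINT1 and SPINT2. Every probe set annotated to these symbols was taken, which gave 14 of 54675 probe sets for 7 of the genes, among 19775 genes with a probe set of their own. Of these 14, 12 passed a filter on low values, which asked for the 40th percentile of an array on at least 2 arrays and kept 33970 probe sets in all. SERPINB2, the intracellular urokinase inhibitor PAI-2, had no probe set under its symbol in the annotation used and was not analysed here. PC3 cells were cultured for 48 h and their RNA was read on 9 arrays of the Affymetrix U133 Plus 2.0 type: 2 of PC3 cells with osteoblasts of Sost knockout mice (OB SostKO), 2 with wild type osteoblasts and 100 ng/ml recombinant human DKK1 (OB WT + rhDKK1, called rhDKK1 below), 3 with wild type osteoblasts and 100 ng/ml recombinant human SOST (OB WT + rhSOST, called rhSOST below), and 2 of PC3 cells in growth medium alone (untreated PC3). PC3 is an established human prostate cancer line, so that all arrays hold the same line. The osteoblasts were primary cells of newborn mouse calvaria. In the paper's co-cultures a porous insert kept them apart from the PC3 cells. No array analysed here holds PC3 cells with wild type osteoblasts and no added protein, so the osteoblasts and the added protein cannot be told apart.

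Urokinase (uPA, from PLAU) and tissue-type plasminogen activator (tPA, from PLAT) are serine proteases that cut plasminogen into plasmin, which degrades fibrin and matrix proteins. The receptor uPAR, from PLAUR, holds urokinase at the cell surface, and serpins such as protease nexin 1 (SERPINE2) and PAI-2 (SERPINB2) trap the activators in covalent complexes. Matriptase, from ST14, is a transmembrane serine protease of epithelial cells that can activate pro-urokinase and pro-HGF, and the transmembrane Kunitz-type inhibitors HAI-1 (SPINT1) and HAI-2 (SPINT2) block it. PC3 cells are known as strong producers of urokinase.

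The values are the log2 values that the authors made with RMA, which corrects background, equalizes the arrays and summarizes each probe set. They compare arrays for 1 probe set, not the levels of different genes. The median of an array lay between 5.45 and 5.52. The untreated arrays stood apart in preparation: the mean of the 24 poly-A control probe sets, for RNAs added at labelling, was 6.38 to 7.22 on the co-culture arrays, against 10.99 and 11.66 on the untreated arrays. The 3′ minus 5′ signal of ACTB was 0.99 to 2.06 on the co-culture arrays, against 0.50 and 0.88 on the untreated arrays, while that of GAPDH was 0.12 to 0.42 against 0.15 and 0.24. These differences run with the contrast between co-culture and untreated PC3, and the part of preparation in the results cannot be told apart from that of culture. All 5 genes listed as present in PC3 cells (KRT8, KRT18, KRT19, EPCAM and VIM) passed the filter. Their mean was 12.79 to 12.89 on the co-culture arrays, against 12.76 to 12.78 on the untreated arrays. Of 9 annotated osteoblast markers 5 passed the filter and none passed the test. The mean of the list was 5.49 to 5.63 on the co-culture arrays, against 5.53 to 5.65 on the untreated arrays. Over the 9 arrays COL1A1 spanned 8.68 to 9.77 and RUNX2 8.62 to 9.16, and the other markers lay lower. The osteoblasts were of mouse and the probes are human, so mouse RNA would be read only where it cross-hybridizes.

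The members that differed between co-culture and untreated PC3 cells were all lower in co-culture. With all 3 co-cultures together, 3 of the 12 probe sets were lower at an adjusted p under 0.05 (limma, Benjamini-Hochberg over all 33970 probe sets): both well measured probe sets of ST14 and 1 of 3 of PLAUR. None was higher. Over all kept probe sets 2.75% were lower and 4.44% were higher in that comparison. In single co-cultures, ST14 was lower with OB SostKO, 1 of 12 probe sets, against 0.718% lower and 0.901% higher over all. No member passed with rhDKK1, where 0.721% of all were lower and 1.03% higher, or with rhSOST, where 1.32% of all were lower and 2.66% higher. At an unadjusted p under 0.05, 6 of 12 probe sets were lower with OB SostKO, 5 with rhDKK1, 5 with rhSOST and 7 with all co-cultures together, against 8.69%, 8.58%, 8.01% and 10.9% of all kept probe sets. None of the 12 was higher at that p, against 10.2%, 10.4%, 12.9% and 13.8% of all. The median log2 difference of the 12 probe sets was -0.28 with OB SostKO and -0.27 with rhDKK1, against 0 over all kept probe sets in each, and -0.24 with rhSOST, against 0.01. Since the 3 comparisons share the 2 untreated arrays, they are not independent of each other. The members were chosen with earlier results of these data known, and the 12 probe sets read only 7 genes. The shares of members are therefore a description and no test of the members as a set.

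**Figure D1:**
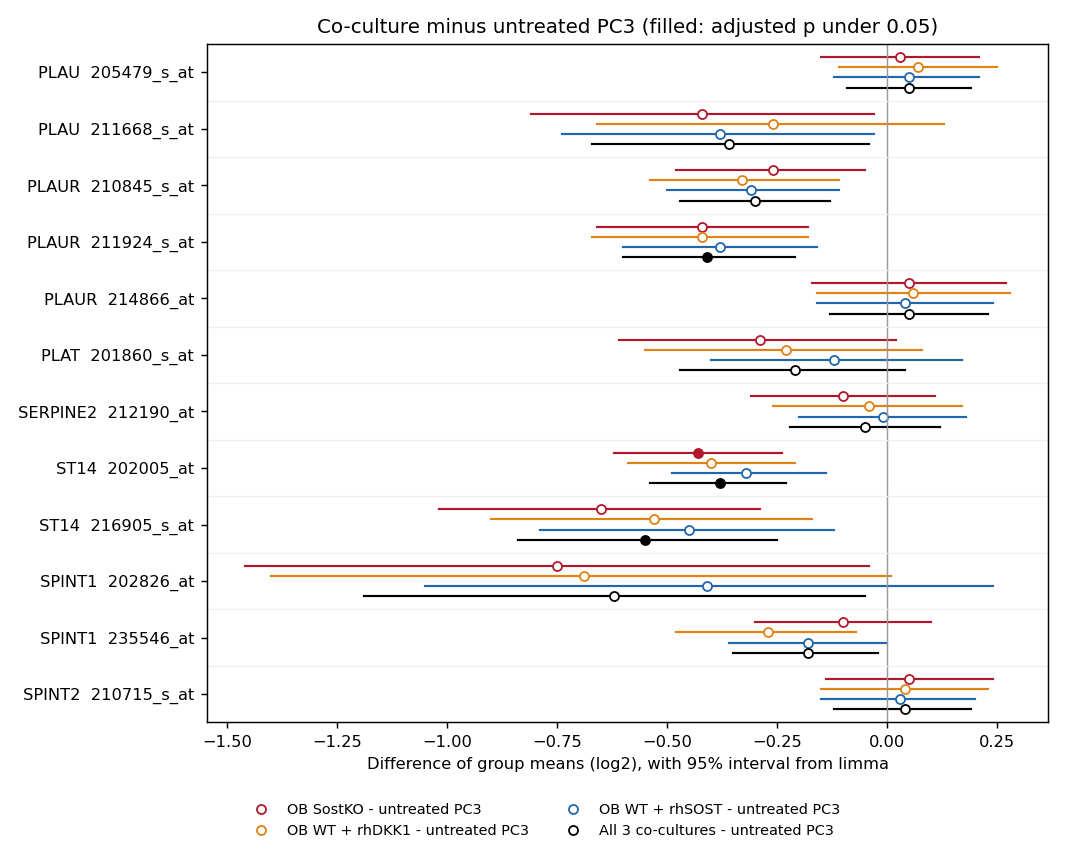
Difference between the mean of each co-culture and that of untreated PC3 cells (horizontal axis, log2) for the 12 member probe sets, with 95% intervals from limma; filled points have an adjusted p under 0.05. Both ST14 probe sets, 2 of PLAUR, SPINT1 202826_at and PLAU 211668_s_at lie below 0 in each comparison, while PLAU 205479_s_at, PLAUR 214866_at and SPINT2 lie slightly above 0.

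Urokinase mRNA was read by 2 probe sets of PLAU. PLAU 205479_s_at was near the top of the scale, where a change can be understated, at 13.07 and 12.99 with OB SostKO, 13.08 and 13.07 with rhDKK1, and 13.04, 13.07 and 13.04 with rhSOST, against 13.06 and 12.94 in untreated PC3 cells. The groups overlapped, and with all co-cultures together the difference was 0.05 (standard error 0.06, 95% interval -0.09 to 0.19, adjusted p = 0.670). PLAU 211668_s_at had 11.34 and 11.34 with OB SostKO, 11.54 and 11.45 with rhDKK1, and 11.11, 11.34 and 11.67 with rhSOST, against 11.87 and 11.64 in untreated PC3 cells. Here 6 of the 7 co-culture arrays lay below both untreated arrays, and rhSOST replicate 3 lay between them. Its differences of -0.42, -0.26 and -0.38 for OB SostKO, rhDKK1 and rhSOST did not pass the test (adjusted p = 0.238, 0.438 and 0.213). Without rhSOST replicate 3, the difference with rhSOST was -0.53 and passed (adjusted p = 0.0466), and that with all co-cultures was -0.40 (adjusted p = 0.0359).

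PLAT 201860_s_at, the only probe set of tissue-type plasminogen activator, had 10.60 and 10.78 with OB SostKO, 10.84 and 10.66 with rhDKK1, and 10.83, 10.74 and 11.04 with rhSOST, against 11.11 and 10.86 in untreated PC3 cells. OB SostKO and rhDKK1 lay below both untreated arrays, and rhSOST replicate 3 lay between them. The differences were -0.29 (standard error 0.14, adjusted p = 0.294), -0.23 (standard error 0.14, adjusted p = 0.391) and -0.12 (standard error 0.12, adjusted p = 0.657) for OB SostKO, rhDKK1 and rhSOST, and none passed.

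The urokinase receptor lay below untreated PC3 on every co-culture array on 2 of its 3 probe sets, of which 1 passed the test with all co-cultures together. PLAUR 211924_s_at had 9.79 and 9.94 with OB SostKO, 9.94 and 9.78 with rhDKK1, and 9.98, 9.80 and 9.94 with rhSOST, against 10.36 and 10.21 in untreated PC3 cells. All 7 co-culture arrays lay below both untreated arrays. With all co-cultures together PLAUR 211924_s_at was 1.33-fold lower (log2 difference -0.41, standard error 0.08, adjusted p = 0.0312), and for single co-cultures the differences of -0.42, -0.42 and -0.38 had adjusted p = 0.0930, 0.0869 and 0.0717. PLAUR 210845_s_at, the brightest of the 3, had 10.39 and 10.33 with OB SostKO, 10.26 and 10.33 with rhDKK1, and 10.37, 10.28 and 10.31 with rhSOST, against 10.73 and 10.52 in untreated PC3 cells. These groups did not overlap either, and the difference of -0.30 with all co-cultures together had an adjusted p just above the threshold (standard error 0.07, adjusted p = 0.0511). Without untreated replicate 1 it was -0.19 (adjusted p = 0.334). PLAUR 214866_at went the other way by a margin within its error, with 9.51 to 9.75 on the co-culture arrays, against 9.57 and 9.64 on the untreated arrays (difference 0.05, 95% interval -0.13 to 0.23). The call of PLAUR 211924_s_at held without OB SostKO replicate 2, rhSOST replicate 1 or rhSOST replicate 3 (adjusted p = 0.0441, 0.0448 and 0.0287), and was lost when any 1 of the other 6 arrays was left out, with adjusted p values of 0.0536 to 0.227.

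Promoter windows of RefSeq (GRCh38.p14), of 250 bases before and 50 bases after a transcript start, were searched for 4 member genes (PLAU, PLAUR, SERPINE2 and SPINT1), with 7 windows in all. ST14 and SPINT2 had no window in the source used, and PLAT was not searched. The AP-1 motif TGAGTCA, read on both strands, occurred in 2 of these 7 windows, that of PLAUR and 1 of SPINT1, and in 4.95% of all 35116 windows. The CRE TGACGTCA, the NF-kB consensus, CTTTGAA or CTTTGAT of TCF/LEF and TATAAA, searched in the same way, occurred in none of the 7 windows, and in 1.85%, 1.91%, 6.86% and 11.5% of all windows. The GC box GGGCGG occurred in 45.0% of all windows, and with SERPINE2, PLAU and SPINT1 among the members. These are matches of letters and do not show a bound site. The windows with an AP-1 match are shown as 250 bases before and 20 bases after the start, 5′ to 3′ on the strand of the gene, with the match in capitals. In PLAUR (chr19:43670150-43670419, minus strand) it began 186 bases before the start. In SPINT1 (chr15:40843798-40844067, plus strand) the reverse complement TGACTCA began 6 bases before the start and reached across it.
PLAUR: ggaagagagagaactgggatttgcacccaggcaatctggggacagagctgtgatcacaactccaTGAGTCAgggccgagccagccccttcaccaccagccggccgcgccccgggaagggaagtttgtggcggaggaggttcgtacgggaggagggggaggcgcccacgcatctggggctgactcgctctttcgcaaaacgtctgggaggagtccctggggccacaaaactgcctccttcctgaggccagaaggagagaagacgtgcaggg
SPINT1: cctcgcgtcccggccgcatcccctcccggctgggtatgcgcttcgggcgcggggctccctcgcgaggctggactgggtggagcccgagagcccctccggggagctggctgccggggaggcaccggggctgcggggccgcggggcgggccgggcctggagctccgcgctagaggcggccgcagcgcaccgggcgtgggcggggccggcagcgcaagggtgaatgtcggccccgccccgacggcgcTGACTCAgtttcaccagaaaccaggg

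The serpin inhibitor protease nexin 1 did not pass on the probe set that could be tested. SERPINE2 212190_at had 10.04 and 10.12 with OB SostKO, 10.17 and 10.10 with rhDKK1, and 10.11, 10.19 and 10.21 with rhSOST, against 10.08 and 10.28 in untreated PC3 cells. The untreated arrays spanned nearly all co-culture arrays, and with all co-cultures together the difference was -0.05 (95% interval -0.22 to 0.12, adjusted p = 0.711). Its sign turned with rhDKK1, rhSOST and all co-cultures together when untreated replicate 2 was left out. The other probe set, SERPINE2 227487_s_at, reached the filter on no array, with 4.29 to 4.49 on the co-culture arrays, against 4.02 and 4.19 on the untreated arrays, and was not tested.

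Matriptase gave the clearest difference among the members. ST14 202005_at had 10.24 and 10.15 with OB SostKO, 10.26 and 10.19 with rhDKK1, and 10.26, 10.28 and 10.38 with rhSOST, against 10.58 and 10.67 in untreated PC3 cells. All 7 co-culture arrays lay below both untreated arrays, the highest of them being rhSOST replicate 3. The log2 difference was -0.43 with OB SostKO (standard error 0.08, adjusted p = 0.0493), which is 1.35-fold lower, and -0.38 with all co-cultures together (standard error 0.07, adjusted p = 0.0180), which is 1.30-fold lower. With rhDKK1 and rhSOST it was -0.40 and -0.32, just above the threshold (standard error 0.08 each, adjusted p = 0.0581 and 0.0599). In these bulk samples fewer cells with the RNA and less RNA per cell cannot be told apart. ST14 216905_s_at had 9.02 and 9.31 with OB SostKO, 9.44 and 9.13 with rhDKK1, and 9.45, 9.15 and 9.50 with rhSOST, against 9.79 and 9.84 in untreated PC3 cells. Again no co-culture array reached an untreated array. With all co-cultures together it was 1.46-fold lower (log2 difference -0.55, standard error 0.13, adjusted p = 0.0438), and the single differences of -0.65, -0.53 and -0.45 had adjusted p = 0.0865, 0.132 and 0.130. The third probe set, ST14 216906_at, stayed below the filter on all but 1 array, with 4.33 to 4.75 on the co-culture arrays, against 4.82 and 5.04 on the untreated arrays.

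The calls of ST14 rested on small margins. The call of ST14 202005_at with OB SostKO held only without rhSOST replicate 3 (adjusted p = 0.0334), and was lost when any 1 of the other 8 arrays was left out (adjusted p = 0.0726 to 0.163), while its difference stayed between -0.48 and -0.39. With all co-cultures together it was lost without untreated replicate 1, untreated replicate 2 or rhDKK1 replicate 2 (adjusted p = 0.100, 0.0986 and 0.0530). The call of ST14 216905_s_at held only without rhSOST replicate 3 (adjusted p = 0.0312) and otherwise had adjusted p = 0.0507 to 0.212.

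Neither matriptase inhibitor passed the test. SPINT1 202826_at, for HAI-1, had the widest spread among the members, with 9.27 and 9.86 with OB SostKO, 9.89 and 9.35 with rhDKK1, and 9.93, 9.47 and 10.34 with rhSOST, against 10.23 and 10.41 in untreated PC3 cells. rhSOST replicate 3 lay between the untreated arrays, and the other 6 co-culture arrays lay below both. The differences of -0.75, -0.69 and -0.41 for OB SostKO, rhDKK1 and rhSOST had standard errors of 0.31, 0.31 and 0.28 and did not pass (adjusted p = 0.240, 0.272 and 0.462). Their size moved with single arrays, while their sign stayed the same. Without OB SostKO replicate 1 the first was -0.45, and without replicate 2 it was -1.05. Without rhDKK1 replicate 2 the second was -0.42, and without replicate 1 it was -0.96. The third was -0.18 without rhSOST replicate 2 and -0.62 without rhSOST replicate 3. SPINT1 235546_at had 6.93 and 6.99 with OB SostKO, 6.84 and 6.73 with rhDKK1, and 6.94, 6.82 and 6.89 with rhSOST, against 6.99 and 7.13 in untreated PC3 cells. All co-culture arrays lay below both untreated arrays, though OB SostKO replicate 2 and untreated replicate 1 both round to 6.99, and with all co-cultures together the difference was -0.18 (standard error 0.07, adjusted p = 0.156).

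SPINT2 210715_s_at, for HAI-2, had 11.93 and 11.83 with OB SostKO, 11.86 and 11.88 with rhDKK1, and 11.79, 11.89 and 11.89 with rhSOST, against 11.88 and 11.78 in untreated PC3 cells. All groups overlapped, and with all co-cultures together the difference was 0.04 (95% interval -0.12 to 0.19, adjusted p = 0.770).

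**Figure D2:**
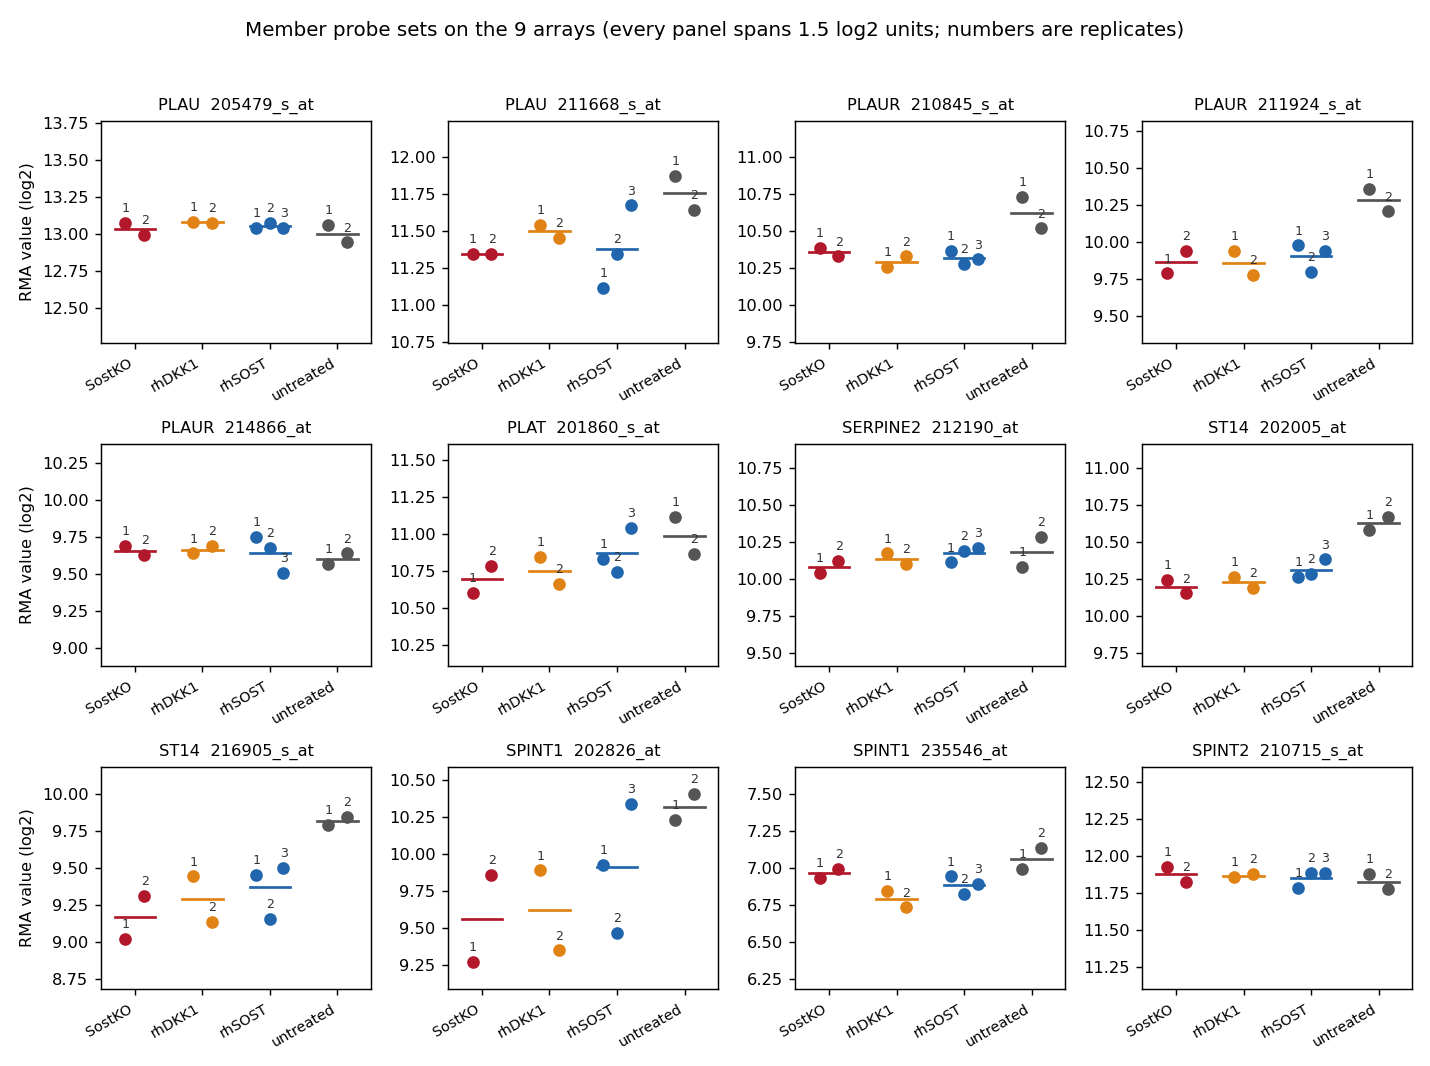
RMA value (vertical axis, log2) of the 12 member probe sets on each of the 9 arrays, by group, with lines at the group means and replicate numbers above the points. Each panel spans 1.5 log2 units. The untreated arrays stand above every co-culture array for ST14 202005_at (10.58 and 10.67) and ST14 216905_s_at (9.79 and 9.84).

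Counted by arrays, all 7 co-culture arrays lay below both untreated arrays for 5 of the 12 probe sets, 2 of ST14, 2 of PLAUR and SPINT1 235546_at, against 10.6% of all kept probe sets. All 7 lay above for none of the 12, against 13.1% of all. These counts too are a description, since the members were chosen with earlier results known and probe sets of the same gene are not separate observations. The untreated group had the highest mean of the 4 groups for 9 of the 12 probe sets. Among the co-cultures rhSOST had the highest mean and OB SostKO the lowest for both ST14 probe sets, SPINT1 202826_at, PLAT and SERPINE2, but the means of the 3 co-cultures differed by 0.09 to 0.35 for these, and none of these differences passed when tested directly.

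Set directly against each other, the co-cultures gave no call for any member. OB SostKO against rhSOST, rhDKK1 against rhSOST and OB SostKO against rhDKK1 each had 0 of 12 probe sets past an adjusted p under 0.05 (limma), and 0% of all kept probe sets passed in any of the 3. At an unadjusted p under 0.05 none of the 12 members passed, and 1165, 791 and 290 of all 33970 probe sets did. For ST14 202005_at the difference was -0.11 between OB SostKO and rhSOST (95% interval -0.29 to 0.06), -0.08 between rhDKK1 and rhSOST (-0.26 to 0.09) and -0.03 between OB SostKO and rhDKK1 (-0.22 to 0.16). For SPINT1 202826_at the intervals were wider, at -1.0 to 0.30, -0.94 to 0.36 and -0.77 to 0.65 around -0.35, -0.29 and -0.06. A difference of 1 log2 unit, or 2-fold, lay outside all 3 intervals of ST14 202005_at. ST14 202005_at passed against untreated PC3 with OB SostKO and not with the other co-cultures, but these tests did not show a difference between the co-cultures.

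Within the co-cultures, some members shared their low arrays. SPINT1 202826_at was lowest on OB SostKO replicate 1, rhDKK1 replicate 2 and rhSOST replicate 2, at -1.05, -0.96 and -0.85 log2 units from the untreated mean, while the other 4 co-culture arrays lay between -0.45 and 0.02 from it. ST14 216905_s_at had its 3 lowest values on the same arrays, at -0.80, -0.69 and -0.67 from the untreated mean, with the other 4 between -0.51 and -0.32. The same 3 arrays were each lowest in their group for 5 of the 12 probe sets (PLAUR 211924_s_at, PLAT, ST14 216905_s_at and both of SPINT1), against 11.1% of all kept probe sets, and for 3 of the 12 this came with all co-culture arrays below both untreated arrays, against 1.30% of all. ST14 202005_at and PLAUR 210845_s_at, the brightest probe sets of their genes, were not among these 5. This pattern was picked after the values were seen. It did not follow the replicate number. The 3′ minus 5′ signal of ACTB was 1.32, 0.99 and 1.44 on these 3 arrays and 1.19 to 2.06 on the other 4, and the poly-A control mean was 6.41, 6.38 and 7.22 against 6.55 to 6.71, and their part in the pattern was not tested.

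**Figure D3:**
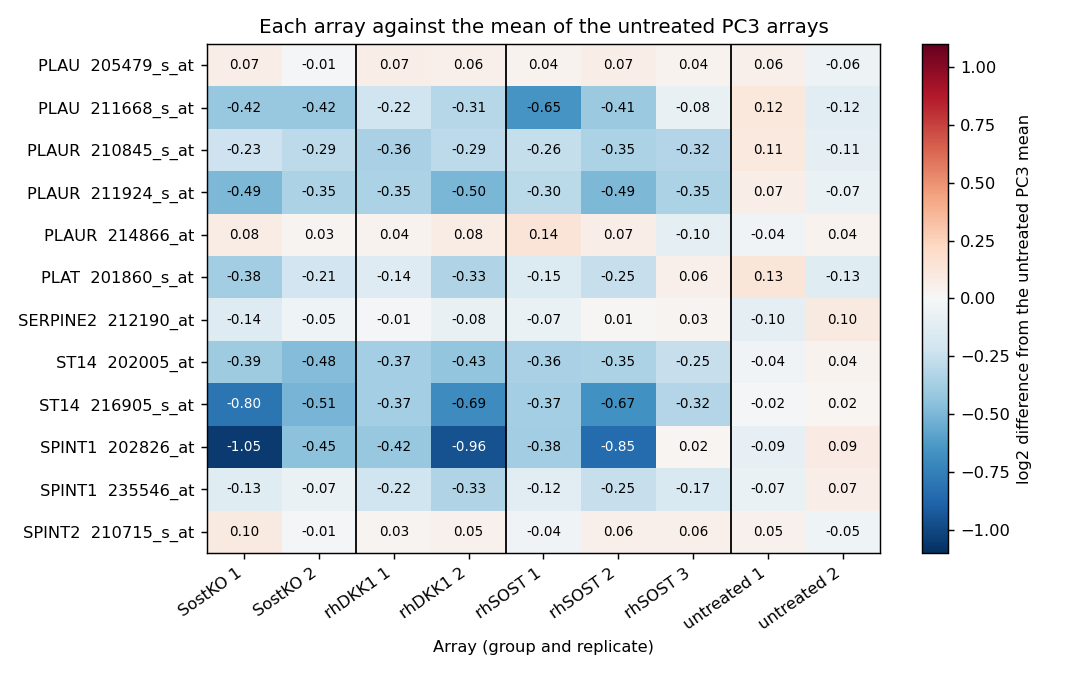
Each array minus the mean of the 2 untreated arrays (log2, colour and printed value), for the 12 member probe sets (rows) on the 9 arrays (columns, black lines between groups). SPINT1 202826_at is lowest on OB SostKO replicate 1 (-1.05), rhDKK1 replicate 2 (-0.96) and rhSOST replicate 2 (-0.85).

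Probe sets of the same gene were compared with each other through their difference on each array, in 6 pairs chosen after the values were seen. PLAU 205479_s_at lay 1.37 to 1.93 above PLAU 211668_s_at on the co-culture arrays, against 1.19 and 1.30 on the untreated arrays. PLAU 205479_s_at lies near the top of the scale, and the part of this in the difference between the 2 probe sets was not tested. PLAUR 211924_s_at lay 0.09 to 0.43 above PLAUR 214866_at on the co-culture arrays, against 0.57 and 0.79 on the untreated arrays, and PLAUR 210845_s_at lay 0.60 to 0.80 above it, against 0.88 and 1.16. In these 3 pairs the groups did not overlap, and each had an exact two-sided permutation p = 0.0556, and 0.111 after adjustment over the 6 pairs. The test doubles the smaller tail. In this form 0.0556 is the smallest p that the 36 splits of 7 arrays against 2 allow, so it cannot reach 0.05. The pairs of ST14 and SPINT1 and the remaining pair of PLAUR had exact p = 0.167 each.

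Of 67 other genes of the same pathways and families, in 6 lists, 61 were annotated and 45 passed the filter, each read by its brightest probe set. None passed the test with OB SostKO (2 passed, SERPINB1 and SERPIND1, under a 60th percentile filter), where 1.08% of all 14863 genes were higher and 0.794% lower. With rhDKK1 1 was higher and 1 lower, against 1.21% and 0.841% of all genes, and with rhSOST 1 was higher and 1 lower, against 3.01% and 1.35%. With all co-cultures together 1 was higher and 2 were lower, against 4.74% and 2.79%. The gene that passed as higher was PDGFD, the platelet-derived growth factor chain that urokinase and matriptase can activate by cleavage. It had 6.50 and 6.59 with OB SostKO, 6.72 and 6.67 with rhDKK1, and 6.68, 6.80 and 6.70 with rhSOST, against 6.26 and 6.11 in untreated PC3 cells. Its log2 differences were 0.36 (adjusted p = 0.0885), 0.51 (adjusted p = 0.0348) and 0.54 (adjusted p = 0.0155), and 0.47 with all co-cultures together (standard error 0.07, adjusted p = 0.0112). The other 7 measured substrates and receptors, among them HGF and MET, did not pass. PDGFC, the nearest relative of PDGFD in the list, had 0.27 with all co-cultures together (adjusted p = 0.0520).

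Among the serpins outside the system, 2 of 9 passed the test, both lower in co-culture. With all co-cultures together the 9 differences ran from -0.67 to -0.01. SERPIND1, heparin cofactor II, had 8.31 and 8.74 with OB SostKO, 8.43 and 8.56 with rhDKK1, and 8.72, 8.70 and 8.89 with rhSOST, against 9.32 and 9.22 in untreated PC3 cells. Its log2 difference was -0.77 with rhDKK1 (adjusted p = 0.0447) and -0.67 with all co-cultures together (standard error 0.12, adjusted p = 0.0178), with -0.75 for OB SostKO and -0.50 for rhSOST (adjusted p = 0.0510 and 0.0795). SERPINB1, an inhibitor of neutrophil elastase, had 9.35 and 9.56 with OB SostKO, 9.47 and 9.47 with rhDKK1, and 9.43, 9.47 and 9.48 with rhSOST, against 9.85 and 9.87 in untreated PC3 cells. It differed by -0.40 with rhSOST (adjusted p = 0.0372) and by -0.40 with all co-cultures together (adjusted p = 0.0189). For SERPIND1 and SERPINB1 all co-culture arrays lay below both untreated arrays, and for PDGFD all lay above. The median of the 9 serpins was -0.32 with OB SostKO and -0.27 with rhDKK1, against -0.01 over all genes in each, and -0.20 with rhSOST, against 0.02. The lists were also chosen with earlier results of these data known. Without untreated replicate 1 or untreated replicate 2, none of the 67 passed in any of these comparisons. With rhDKK1, PDGFD was also lost when any 1 co-culture array except rhSOST replicate 3 was left out, and SERPIND1 without either rhDKK1 array or rhSOST replicates 1 and 2. With rhSOST, PDGFD was lost without rhSOST replicate 2 and SERPINB1 when any 1 rhDKK1 or rhSOST array was left out, and with all co-cultures together SERPINB1 was lost without either rhDKK1 array.

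The other lists had no gene past the threshold, and of each the genes with the smallest p in any single co-culture are given. Of 8 further measured genes of plasminogen activation, PLGRKT, a plasminogen receptor, had 0.23 with all co-cultures together (adjusted p = 0.0634) and S100A10, which binds plasminogen with annexin A2, had -0.22 (adjusted p = 0.100). Of 6 uptake receptors, MRC2, a collagen receptor that associates with uPAR, had 0.29 (adjusted p = 0.0542) and SORL1 had 0.18 (adjusted p = 0.136). Of 10 membrane serine proteases, CORIN, which activates atrial natriuretic peptide, had 0.40 (adjusted p = 0.0509) and TMPRSS4 had -0.16 (adjusted p = 0.297), while PRSS8, for prostasin, had -0.20 (adjusted p = 0.545). Of 4 further Kunitz inhibitors, TFPI, which blocks the tissue factor pathway, had 0.34 (adjusted p = 0.0972) and APLP2, a relative of the amyloid precursor protein, had -0.34 with OB SostKO (adjusted p = 0.317) and -0.20 with all co-cultures together (adjusted p = 0.392). APP itself had 0.14 with all co-cultures together (adjusted p = 0.320). The median of these 4 lists with all co-cultures together lay between -0.08 and 0.12, against 0 over all genes.

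**Figure D4:**
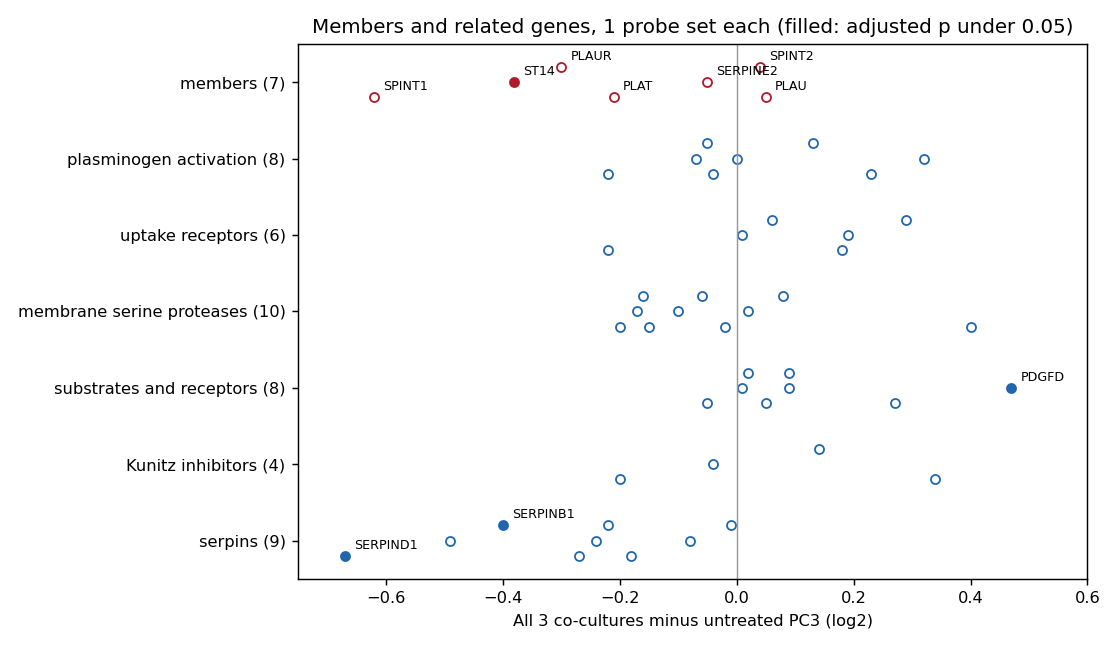
Log2 difference of all 3 co-cultures against untreated PC3 cells (horizontal axis) for the 7 measured members and the 45 measured genes of 6 related lists, 1 point and 1 probe set a gene, with filled points at an adjusted p under 0.05. ST14 (-0.38), SERPIND1 (-0.67) and SERPINB1 (-0.40) lie on the lower side and PDGFD (0.47) on the higher side; points are spread vertically only to keep them apart.

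The genes whose values followed ST14 202005_at most closely over the 9 arrays were PRKAG1, a subunit of AMP-activated protein kinase, NAV3, a neuron navigator, and FAT4, an atypical cadherin, with Pearson r of 0.977, 0.977 and 0.974. The arrays share the gap between co-culture and untreated PC3, which weighs on any such r, and no p is given. NAV3 was lower with OB SostKO, rhDKK1 and rhSOST, with log2 differences of -0.84, -0.75 and -0.70 (adjusted p = 0.00760, 0.00991 and 0.00591), and so was FAT4, with -0.77, -0.66 and -0.60 (adjusted p = 0.0188, 0.0250 and 0.0185). PRKAG1 had -0.30, -0.29 and -0.23 and did not pass in any of them.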

How the data were processed

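RNA from PC3 cells of 4 culture groups was read on 9 arrays. Groups and replicate numbers follow the sample labels, where arrays of a group are biological replicates; nothing further is said of separate cultures, so the p-values measure the spread between these arrays. The log2 values deposited by the authors come from RMA, a name taken from the submitters' processing notes; its version is not given in the sources used here. Precision is limited by the number of arrays.

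The analysis used R 4.3.3 and limma 3.58.1. After removal of 62 control probe sets from 54675, those at or above the 40th percentile of an array on 2 or more arrays were tested (33970). Symbols came from the platform annotation, brought to current RefSeq names (GRCh38.p14); 28244 tested probe sets had 1 symbol, 1307 several and 4419 none. The model (lmFit, eBayes, 8 degrees of freedom) had 1 mean per group over all arrays. P-values were adjusted by Benjamini-Hochberg over all tested probe sets, and the threshold was 0.05. Every probe set of the members is given. Of each related list, genes past the threshold in a comparison with untreated PC3 are named, or otherwise the 2 with the smallest p in any single co-culture, as are the 3 genes most like ST14 by Pearson r. PRSS8, APP, PDGFC, HGF and MET were named after their values were seen. Exact permutation tests used scipy 1.17.1.

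The members and lists were chosen with earlier results of these data known. The procedure was checked on simulated data with independent noise. A rate of recovery was required only for changes larger than any of the members, so the check does not show how often changes of their size are called. The alternatives changed the filter (none, 60th percentile), the scaling (cyclic loess), the feature (1 probe set or the mean of the probe sets per gene), the samples (only the 2 groups compared, each array left out in turn), the threshold, the replicate block and the test (the methods' ANOVA with Tukey's comparisons and the methods' paired test). Probe set pairs and the array pattern were chosen after the values were seen.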

Additional observations from a re-analysis of the deposited data

How the results depend on the processing

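The number of member genes that passed, each read by its brightest probe set, was 1 with OB SostKO (ST14), 0 with rhDKK1, 0 with rhSOST, 1 with all co-cultures together (ST14) and 0 in the 3 direct comparisons. With OB SostKO it was 0 with a fold of at least 2 added, with no filter (adjusted p = 0.0691 for ST14), with only the 2 groups compared (0.157), with the methods' ANOVA and Tukey's comparisons after Benjamini-Hochberg (0.246) and with the methods' paired test before and after Benjamini-Hochberg. With rhDKK1 it was 1 (ST14) at an adjusted p under 0.1, under the 60th percentile filter, with cyclic loess, with 1 probe set per gene and with the mean of the probe sets, and 2 (ST14 and PLAUR) with the methods' ANOVA unadjusted. With rhSOST it was 1 (ST14) under the 60th percentile filter, with cyclic loess, with 1 probe set per gene and with the mean, and 2 (ST14 and PLAUR) at an adjusted p under 0.1 and with the methods' ANOVA unadjusted. With all co-cultures together it was 0 with a fold of at least 2, and 2 (ST14 and PLAUR) at an adjusted p under 0.1, under the 60th percentile filter and with 1 probe set per gene. Fewer features are tested under the 60th percentile filter (22827) and with 1 probe set per gene (14863), and more with no filter (54613); the cause of the other shifts was not tested. OB SostKO against rhSOST gave 1 (SERPINE2) with the methods' paired test unadjusted.

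Leaving out each array in turn gave 0 to 1 with OB SostKO, 0 to 1 with rhDKK1, 0 to 0 with rhSOST, 0 to 1 with all co-cultures together and 0 to 0 in each direct comparison; a group left with 1 array was assumed to vary like the others. The log2 difference turned to 0.01 for PLAT with rhSOST without untreated replicate 1 (range -0.24 to 0.01), and for SERPINE2, without untreated replicate 2, to 0.05 with rhDKK1 (-0.14 to 0.05), 0.09 with rhSOST (-0.11 to 0.09) and 0.05 with all co-cultures together (-0.15 to 0.05). It turned to 0.08 for ST14 216905_s_at between rhDKK1 and rhSOST without rhDKK1 replicate 2 (-0.24 to 0.08). Of 1501 differences of single probe sets under the alternatives, 1441 stayed on their side of the threshold, 22 came to pass, 33 no longer passed and 5 turned. The 22 include differences under the methods' tests unadjusted, where a p before adjustment was set against the same 0.05. Where neither value passed, a change of sign smaller than the standard error counts among the 1441, not as turned.

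The labels do not say that same-numbered arrays share a day or batch. Their deviations from the group means correlated at -0.54 to 0.43 over 12 pairs, and at over 0.1 in 4. In a group of 2 arrays the deviations mirror each other, so some of these values repeat. Whether a number marks a shared batch cannot be told from them. With the replicate number as a block, OB SostKO had 0 (ST14 adjusted p = 0.0763), and with all co-cultures together ST14 216905_s_at had 0.0559; no other count of member genes moved.

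Of the related genes 0 passed with OB SostKO, but 2 (SERPINB1 and SERPIND1) under the 60th percentile filter and with 1 probe set per gene, and 1 (SERPIND1) with cyclic loess and with the mean. With rhDKK1 and with rhSOST 2 passed, but 1 with no filter and with the mean, and 0 with only the 2 groups compared and with the replicate block. With all co-cultures together 3 passed, but 7 with 1 probe set per gene, 6 under the 60th percentile filter and 5 with the mean. Leaving out each array gave 0 to 1 with OB SostKO, 0 to 2 with rhDKK1, 0 to 4 with rhSOST (4 without either OB SostKO array) and 0 to 5 with all together (5 without OB SostKO replicate 1 or rhSOST replicate 3).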
